A study of Mus musculus with 9 samples.

Results

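The 10 genes described here mark the cells that line brain blood vessels. They were followed through the amygdala, hypothalamus and prefrontal cortex of mice on 3 feeding regimens: the junction and adhesion genes Cldn5, Esam and Pecam1, the growth factor receptors Flt1, Kdr and Tek, the transporters Slco1c1 and Slco1a4, the surface gene Ly6c1 and the clotting gene Vwf. They were chosen by name, as genes whose RefSeq accession in the array files maps to these symbols, and they are 10 of the 16358 genes that could be named, held by 11 of the 41174 probes. All animals were male wild-type C57BL/6J mice of 8 to 9 weeks. Mice with free access to food (AD) were the controls, a second group (CR, caloric restriction) received a restricted ration set from what the third group ate, and the third group (RFR, repeated fasting and refeeding) fasted on alternate days and fed freely in between. The 4 mice of each diet were killed on day 8 under diethyl ether, perfused through the heart with cold saline, and their brains were cut into coronal slices of 1 mm. The labels place the amygdala and hypothalamus between 1.5 and 2.5 mm behind bregma, and they also write posterior for the prefrontal cortex slice, at 2.5 to 3.5 mm. RNA of 4 mice was pooled for each region and diet, and 400 ng of each pool was labelled with Cy3 and hybridised to an array of its own. The study therefore has 9 arrays, 1 for each region and diet, and 3 pools of mice, each of which gave all 3 regions. The series title names the behaviour of food-restricted mice and the amygdala as its subject; the vessel genes are described here across all 9 arrays.

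Brain endothelial cells form the blood-brain barrier: tight junctions seal the gaps between neighbouring cells, and transporters in the cell membrane decide which solutes cross. Signals of the VEGF and angiopoietin families, read by receptor kinases on the endothelium, govern the growth and stability of vessels, and Wnt signals from neural tissue switch on the barrier genes. Some small areas at the base of the hypothalamus have leaky, fenestrated capillaries in place of a barrier.

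Of the 10 genes, 7 have a promoter entry in the RefSeq table of assembly GRCm38.p6 (Cldn5, Flt1, Tek, Kdr, Slco1c1, Slco1a4 and Ly6c1). Stretches of DNA with the letters GGAA, the core read by ETS factors that drive endothelial genes, were searched on both strands. The windows had 300 bases, from 250 before to 50 after the start set by the promoter entry. That start matched the annotated start of the gene for Cldn5 and Slco1c1 only, and not for the other genes. The core was found for 6 of these 7 genes and in 95.9% of all 27025 promoters, with a median of 3 matches per promoter, so its presence sets the genes apart in no way. The 250 bases before the start of a tight junction gene and of a transporter gene are shown, because these are the 2 genes with such a match of starts. The core, on either strand (GGAA or TTCC), is in capitals.

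Cldn5 (chr16:18776597-18776846, plus strand): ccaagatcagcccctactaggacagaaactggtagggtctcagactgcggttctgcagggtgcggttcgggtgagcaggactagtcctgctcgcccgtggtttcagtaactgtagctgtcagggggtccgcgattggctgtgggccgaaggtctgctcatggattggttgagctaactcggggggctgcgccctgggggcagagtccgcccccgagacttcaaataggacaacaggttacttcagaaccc
Slco1c1 (chr6:141524104-141524353, plus strand): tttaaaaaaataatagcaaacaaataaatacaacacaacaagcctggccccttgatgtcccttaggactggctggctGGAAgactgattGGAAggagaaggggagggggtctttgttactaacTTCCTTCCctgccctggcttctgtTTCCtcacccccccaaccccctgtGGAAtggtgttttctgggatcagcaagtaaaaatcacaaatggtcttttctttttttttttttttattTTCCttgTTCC

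No core was found before the start of Cldn5, whose stretch is 59.6% G or C, and 8 were found before that of Slco1c1, at 42.8%. The longer ETS forms CCGGAA and CAGGAA were found for 2 of the 7 genes, Tek and Kdr, and in 41.4% of all promoters. The TCF/LEF motif CTTTGA, through which Wnt signals act, was found for 0 of 7 genes and in 16.2% of all promoters, and the TATA box TATAAA for 3 of 7 (Flt1, Slco1c1 and Ly6c1) and in 14.2%. All were searched on both strands in the windows of 300 bases. The TATAAA match of Slco1c1 did not lie wholly within the 250 bases shown. The forms CCGGAA and CAGGAA contain the core, and a match describes the letters only.

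Levels are the log2 of the background-corrected spot signal minus the 75th percentile of the same array, so that 0 is the brightness below which 75% of the array's 43379 noncontrol spots lie. All 90 values of the 10 genes (9 arrays each) were well above background and 0 were saturated, so the endothelial markers were present in every region and diet. On each array, 59.8% to 69.6% of spots passed the software's background test. The precision is limited by the small number of arrays, 1 for each region and diet. The regions' labels were checked on textbook genes: the hypothalamic peptide gene Hcrt lay at 6.62 to 7.19 in hypothalamus and at most -0.88 in the other 2 regions, and the cortical gene Cux2 lay at 0.21 to 0.43 in prefrontal cortex and at most -0.69 elsewhere. Rspo2, a gene of the basolateral amygdala, lay at -0.041 to 0.26 in amygdala and 0.66 to 0.92 in prefrontal cortex, so it did not single out the amygdala arrays. The arrays were on 3 slides: the 3 AD arrays and the prefrontal RFR array on the first, the amygdala RFR, hypothalamus RFR, hypothalamus CR and prefrontal CR arrays on the second, and the amygdala CR array alone on the third, with a scan of its own. For amygdala under CR, slide and diet cannot be told apart. No CR array was on the first slide, so CR against AD compared different slides in every region. RFR and AD shared a slide in prefrontal cortex only, and CR and RFR in hypothalamus only. In all other diet comparisons within a region, slide and diet cannot be told apart either.

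Across regions, all 10 endothelial genes were lower in hypothalamus than in prefrontal cortex, 6 of them past the test, with differences of 1.37-fold (Esam) to 1.87-fold (Slco1c1). Over all genes, 45.8% were lower by any amount, 48% were called in either direction and 21.3% were called lower. The thyroid hormone transporter gene Slco1c1 showed the widest gap and a graded order, with prefrontal cortex above amygdala and amygdala above hypothalamus. Regions were compared over the 3 diets with limma, and values after ± are standard errors of the fitted difference, over 3 arrays a region, unless SD is written. In these data from whole tissue, fewer endothelial cells and less RNA per endothelial cell cannot be told apart.

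**Figure D1:**
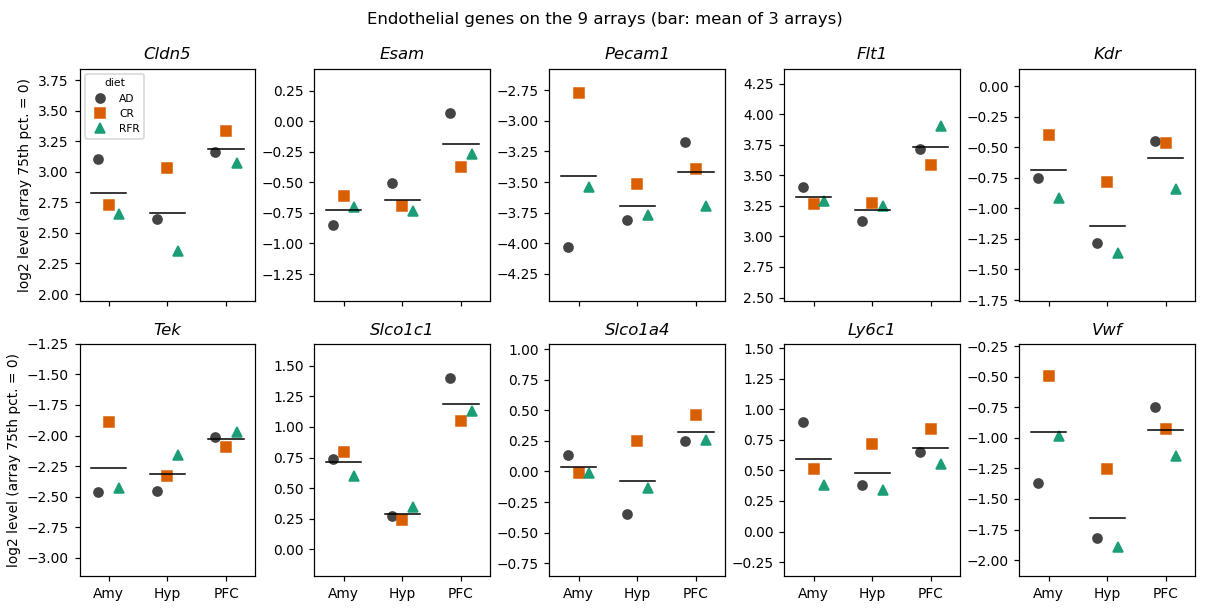
Log2 level of each of the 10 endothelial genes on the 9 arrays (y axis, the array's 75th percentile set to 0), by region (x axis; Amy, amygdala, Hyp, hypothalamus, PFC, prefrontal cortex) and diet (circle AD, square CR, triangle RFR), with a bar at the mean of the 3 arrays of a region. Each panel has its own zero point but the same span. Slco1c1 separates the 3 regions without overlap, from 0.24 to 0.34 in hypothalamus to 1.04 to 1.40 in prefrontal cortex, while Pecam1 spreads most within the amygdala, from -4.03 to -2.77.

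Among the junction genes, Cldn5 encodes claudin-5, the main sealing protein of the barrier's tight junctions. In the order AD, CR and RFR, its log2 level was 3.16, 3.33 and 3.07 in prefrontal cortex, 3.10, 2.72 and 2.66 in amygdala, and 2.61, 3.03 and 2.35 in hypothalamus. Every prefrontal array was above every hypothalamic array, and the amygdala arrays overlapped both other regions. Cldn5 was 0.53 ± 0.16 log2 units lower in hypothalamus than in prefrontal cortex (1.44-fold, limma adjusted p = 0.034). Its differences of amygdala from prefrontal cortex (-0.36 ± 0.16, adjusted p = 0.17) and from hypothalamus (0.16 ± 0.16, adjusted p = 0.49) did not pass.

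Esam, a cell adhesion molecule of endothelial junctions, had levels of 0.067, -0.37 and -0.27 in prefrontal cortex under AD, CR and RFR, of -0.85, -0.61 and -0.70 in amygdala, and of -0.51, -0.70 and -0.74 in hypothalamus. The 3 prefrontal arrays lay above the 6 others, and amygdala and hypothalamus overlapped. Esam was lower than in prefrontal cortex by 0.53 ± 0.14 log2 units in amygdala (1.45-fold, limma adjusted p = 0.036) and by 0.46 ± 0.14 in hypothalamus (1.37-fold, adjusted p = 0.033). It was the single gene of the 10 that was not higher in amygdala than in hypothalamus (-0.076 ± 0.14, adjusted p = 0.72).

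Pecam1 encodes CD31, an adhesion molecule of endothelial contacts that is also found on platelets and white blood cells. Its levels under AD, CR and RFR were -3.17, -3.39 and -3.70 in prefrontal cortex, -4.03, -2.77 and -3.54 in amygdala, and -3.81, -3.51 and -3.77 in hypothalamus. All 3 regions overlapped, and the amygdala arrays alone, with an SD of 0.64, spanned more than the other 6. No region difference of Pecam1 passed the test (adjusted p = 0.41 to 0.96). Its probe was printed 10 times on each array, and the SD of log2 signal between 9 or 10 usable spots was 0.058 to 0.23, so the gap between the amygdala arrays was wider than the spread between spots.

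Of the receptors, Flt1 (VEGFR1) is the high-affinity VEGF receptor that also acts as a decoy. Its levels under AD, CR and RFR were 3.71, 3.58 and 3.90 in prefrontal cortex, 3.41, 3.26 and 3.29 in amygdala, and 3.12, 3.28 and 3.25 in hypothalamus. The 3 prefrontal arrays lay above the 6 others, which overlapped. Flt1 was lower than in prefrontal cortex by 0.52 ± 0.11 log2 units in hypothalamus (1.43-fold, limma adjusted p = 0.0089) and by 0.42 ± 0.11 in amygdala (1.33-fold, adjusted p = 0.042). A second Flt1 probe gave region means of 1.04 ± 0.076 (SD, n = 3) in prefrontal cortex, 0.68 ± 0.11 in amygdala and 0.62 ± 0.22 in hypothalamus, the same order. With that probe the hypothalamus difference passed (-0.42, adjusted p = 0.036) and the amygdala difference did not (-0.37, adjusted p = 0.095).

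Kdr (VEGFR2) is the main signalling receptor for VEGF on endothelium. Under AD, CR and RFR it measured -0.45, -0.47 and -0.85 in prefrontal cortex, -0.75, -0.40 and -0.92 in amygdala, and -1.29, -0.79 and -1.36 in hypothalamus. The hypothalamic AD and RFR arrays were the 2 lowest of the 9, and the hypothalamic CR array overlapped the other regions. Kdr was 0.56 ± 0.12 log2 units lower in hypothalamus than in prefrontal cortex (1.47-fold, limma adjusted p = 0.0079) and 0.46 ± 0.12 higher in amygdala than in hypothalamus (1.37-fold, adjusted p = 0.029). Within each diet the hypothalamus was the lowest of the 3 regions.

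Tek (Tie2) is the receptor for the angiopoietins, which steady or loosen vessel walls. Its levels were -2.01, -2.09 and -1.97 in prefrontal cortex under AD, CR and RFR, -2.47, -1.89 and -2.43 in amygdala, and -2.45, -2.33 and -2.16 in hypothalamus. The prefrontal arrays lay above the hypothalamic ones without overlap, and the amygdala CR array was the highest of all 9. Tek was 0.29 ± 0.16 log2 units lower in hypothalamus than in prefrontal cortex, which did not pass the test (limma adjusted p = 0.18).

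Of the transporters, Slco1c1 (OATP1C1) carries thyroxine into the brain. Its levels were 1.40, 1.04 and 1.13 in prefrontal cortex under AD, CR and RFR, 0.74, 0.80 and 0.60 in amygdala, and 0.27, 0.24 and 0.34 in hypothalamus. The 3 regions did not overlap, and neighbours in the order were separated in every diet. Slco1c1 was lower in hypothalamus than in prefrontal cortex by 0.91 ± 0.12 log2 units (1.87-fold, limma adjusted p = 0.00082) and than in amygdala by 0.43 ± 0.12 (1.35-fold, adjusted p = 0.035), and lower in amygdala than in prefrontal cortex by 0.48 ± 0.12 (1.39-fold, adjusted p = 0.029). It was the only one of the 10 genes called in all 3 region comparisons.

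Slco1a4 (OATP1A4) moves organic anions, among them bile acids and drugs, across the barrier. It measured 0.25, 0.46 and 0.26 in prefrontal cortex under AD, CR and RFR, 0.14, -0.0092 and -0.013 in amygdala, and -0.35, 0.25 and -0.14 in hypothalamus. The 3 prefrontal arrays were above the 6 others, though the AD array only just topped the hypothalamic CR array. The difference of -0.40 ± 0.14 between hypothalamus and prefrontal cortex missed the threshold (limma adjusted p = 0.055). Probes of its close relatives Slco1a1 and Slco1a6 were well above background on 0 arrays and that of Slco1a5 on 8, and whether the Slco1a4 probe reads them could not be checked, since probe sequences were not used here.

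Ly6c1 encodes a small surface protein of brain endothelium and of some white blood cells, and Vwf the von Willebrand factor, which tethers platelets. Ly6c1 had levels of 0.65, 0.84 and 0.55 in prefrontal cortex under AD, CR and RFR, of 0.89, 0.51 and 0.38 in amygdala, and of 0.38, 0.71 and 0.34 in hypothalamus. All 3 regions overlapped, and no difference passed (limma adjusted p = 0.295 to 0.73). Ly6c1 has a near-identical copy, Ly6c2, that no probe named here represents, so its signal may hold both genes.

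Vwf measured -0.75, -0.93 and -1.15 in prefrontal cortex under AD, CR and RFR, -1.37, -0.49 and -0.98 in amygdala, and -1.82, -1.25 and -1.89 in hypothalamus. The hypothalamic AD and RFR arrays were the 2 lowest of the 9, and the amygdala arrays enclosed those of prefrontal cortex. Vwf was 0.72 ± 0.20 log2 units lower in hypothalamus than in prefrontal cortex (1.64-fold, limma adjusted p = 0.022) and 0.71 ± 0.20 lower than in amygdala (1.63-fold, adjusted p = 0.037). Amygdala and prefrontal cortex differed by -0.0093 ± 0.20, with a 95% interval of -0.48 to 0.46.

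**Figure D2:**
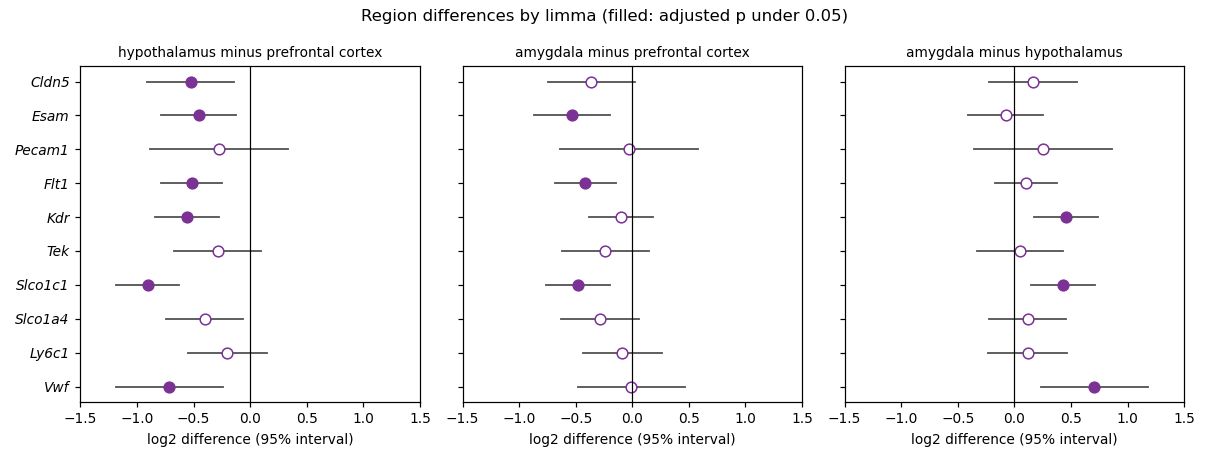
Fitted log2 difference between 2 regions (x axis) for each endothelial gene (y axis), with its 95% interval; filled points have a limma adjusted p under 0.05. In hypothalamus minus prefrontal cortex all 10 points lie below 0 and 6 are filled, in amygdala minus prefrontal cortex 10 lie below 0 and 3 are filled, and in amygdala minus hypothalamus 9 lie above 0 and 3 are filled.

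Counted together, 6 of the 10 genes fell past the test in hypothalamus relative to prefrontal cortex (Cldn5, Esam, Flt1, Kdr, Slco1c1 and Vwf), beside the 21.3% called lower of all 12619 genes fitted. The median of the 10 differences was -0.49, beside 0.056 over all genes. With the arrays scaled to their median in place of the 75th percentile, all genes shifted to a median of -0.078 and the share of calls that were higher moved from 55.7% to 42.8%, while 7 of the 10 endothelial genes were called lower. The regions did not overlap for 7 of the 10 genes, against 26% of all genes lower without overlap. In amygdala against prefrontal cortex, 3 genes were called lower (Flt1, Esam and Slco1c1), beside 22.3% of all genes called and 10.2% called lower, and the median of the 10 was -0.26 against 0.0035. The arrays did not overlap for 4 genes, those 3 and Slco1a4, beside 16.6% of all genes lower without overlap. There, median scaling moved the share of higher calls from 54.4% to 36.1%. In amygdala against hypothalamus, 3 were called higher (Kdr, Vwf and Slco1c1), beside 29.5% called and 13.5% called higher, with a median of 0.14 against -0.057; the regions did not overlap for 1 gene, against 16.8% of all genes.

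The counts changed when arrays were left out or slide was a term, and so did those over all genes. Without the RFR arrays, 1 gene (Slco1c1) was called in hypothalamus against prefrontal cortex. The count was 5 without the AD or without the CR arrays and 8 without the amygdala CR array. Of all 12619 genes, 2685 were called lower there with all arrays and 1490 without the RFR arrays. Without the AD, the CR or the amygdala CR arrays, 2359, 2212 and 2969 were. Slco1c1 was called in that comparison under all 14 alternatives (limma adjusted p = 0.00017 to 0.018). With slide as a fixed term, 4 of the 10 were called there (Cldn5, Flt1, Kdr and Slco1c1), beside 2348 of all genes called lower. In both amygdala comparisons 0 of the 10 were then called. Over all genes, calls higher in amygdala than in hypothalamus went from 1709 to 1388 with that term. Calls lower in amygdala than in prefrontal cortex went from 1284 to 566. Without the RFR arrays these were 710 and 350, and without the CR arrays 1213 and 655. In those 2 comparisons, leaving out the CR or the RFR arrays gave 0 calls, leaving out the AD arrays gave 1 (Vwf, against hypothalamus) and 0, and leaving out the amygdala CR array gave 0 against hypothalamus and 3 against prefrontal cortex (Tek, Esam and Slco1c1).

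Regions that shared a slide could be compared within it, 1 array against 1 and without a test. On the first slide, under AD, all 10 genes were lower in hypothalamus than in prefrontal cortex, beside 43.8% of all genes. Their differences were -0.27 to -1.13 with a median of -0.59, beside 0.082 over all genes. On the second slide, under CR, all 10 were lower again, beside 44.9% of all genes. There they ran from -0.12 to -0.80 with a median of -0.31, beside 0.067. Amygdala AD was below prefrontal AD for 9 of 10 genes on the first slide (median -0.38), beside 46.1% of all genes (median 0.042). It was above hypothalamus AD for 7 of 10 (median 0.46), where 53.9% of all genes were lower (median -0.050). On the second slide, amygdala RFR was above hypothalamus RFR for 9 of 10 (median 0.18), where 54.5% of all genes were lower (median -0.036).

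Markers of other cells moved between the same regions, and their part in the endothelial differences was not tested. The signals of the 10 endothelial genes, each relative to the array's 75th percentile, summed to 29.7 to 30.4 on the prefrontal arrays, 21.8 to 25.6 in amygdala and 19.6 to 23.8 in hypothalamus. Mural cell genes (pericytes and smooth muscle, 15 genes) summed to 28.8 to 33.0 in prefrontal cortex, 37.4 to 39.0 in amygdala and 24.5 to 29.2 in hypothalamus. Their sum was thus highest in amygdala, where the endothelial sum was not. Such sums weigh the brightest genes most, Flt1 and Cldn5 among the 10 and Vtn among the 15. In hypothalamus against prefrontal cortex, 11 of the 15 were lower, 4 past the test (Rgs5, Abcc9, Vtn and Anpep), and 1 of 4 higher ones passed (Notch3), with a median of -0.22. Of 14 genes of meningeal and perivascular fibroblasts, 8 were called lower and 1 higher (median -1.31), and their sums were 10.3 to 19.0 in hypothalamus, 23.6 to 40.2 in prefrontal cortex and 38.9 to 47.9 in amygdala.

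Some of these markers were not well above background in a region, and each list's median is then given also with such genes at their bound (the brighter region's mean less that of the lowest signal detected on each array of the dimmer region, or the gene's own value where higher). Of 6 fitted blood genes, 5 were called lower in hypothalamus than in prefrontal cortex (Hba-a1, Hbb-bt, Alas2, S100a8 and S100a9, median -1.89, or -1.79 with S100a8, above background on 0 hypothalamic arrays, at its bound) and the same 5 in amygdala (median -1.24), although the animals were perfused. Their sums were 2.78 to 10.2 in hypothalamus, 5.35 to 12.1 in amygdala and 15.9 to 28.5 in prefrontal cortex, and 1 of 7 markers was above background on no array. Of 11 genes of microglia and macrophages, 8 were called lower in hypothalamus (median -0.68), with sums of 14.5 to 18.3 against 22.9 to 26.3 in prefrontal cortex. Oligodendrocyte genes went the other way, with 9 of 9 called higher in hypothalamus (median 1.23). Astrocyte genes had 3 called higher and 1 lower (median 0.32), neuron genes 2 higher and 5 lower (median -0.14), and ependymal genes 5 of 5 higher (median 3.29). Choroid plexus genes had 8 of 9 called higher, 4 of which were above background on no prefrontal array (median 2.78, or 1.84 with these at their bounds). Genes listed for the neighbouring pituitary had 3 of 6 called higher (median 1.74, or 0.78 with Tshb at its bound). These were Pomc, Cga, above background on 1 of 3 prefrontal arrays, and Tshb, above background on none. Whether pituitary or hypothalamic cells gave these signals was not tested.

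Other genes of the vessel wall were taken from 14 lists. Their counts for hypothalamus against prefrontal cortex stand beside 21.3% of all genes called lower and 26.7% called higher, and a list near those shares does not stand apart. The pan-endothelial surface and matrix genes mostly went with the 10: of 27, 21 were lower in hypothalamus than in prefrontal cortex, 11 past the test, and 3 were higher past it (median -0.26). Among these, the progenitor and vessel antigen gene Cd34 fell by 2.70 log2 units (limma adjusted p = 1.7e-05), the caveolar gene Cav2 by 1.05 and Rgs5, a pericyte gene, by 0.69, while Sparc, a matrix protein gene that glia express as well, rose by 3.40. Of 21 fitted barrier transporters, 16 were lower, 8 past the test, and 1 was higher past it (median -0.25). The transferrin receptor gene Tfrc fell by 0.66 and the zinc transporter gene Slc39a10 by 1.73, and the cationic amino acid transporter gene Slc7a3 rose by 2.16.

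**Figure D3:**
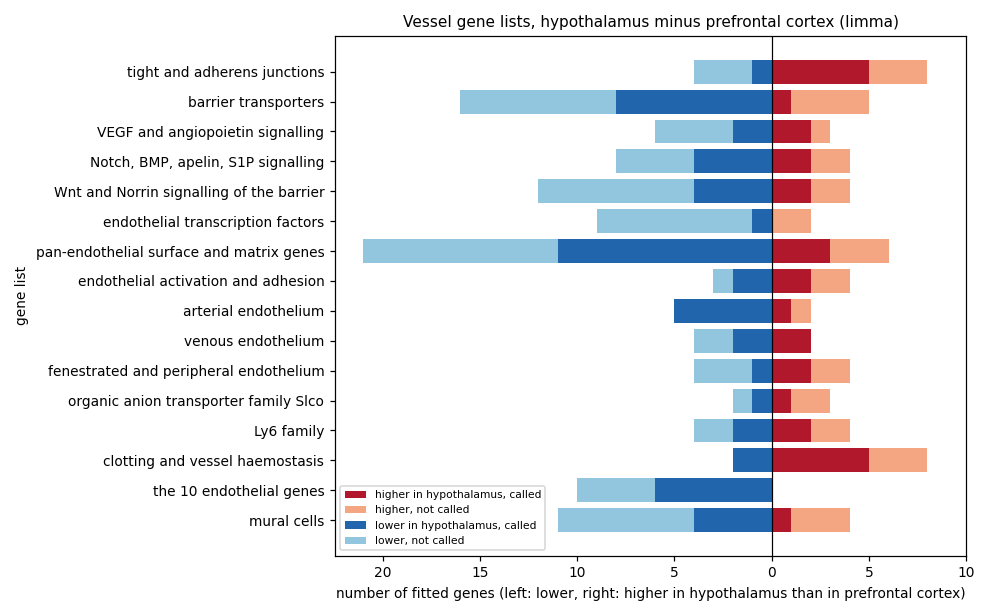
Number of fitted genes in each vessel gene list (y axis) that were lower (left of 0) or higher (right of 0) in hypothalamus than in prefrontal cortex (x axis), with those past a limma adjusted p of 0.05 in dark colours. The 10 endothelial genes all lie to the left, 6 of them dark. Most barrier transporters and pan-endothelial genes also lie to the left, while 8 of 12 junction genes and 8 of 10 clotting genes lie to the right.

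Most other junction genes did not go with Cldn5 and Esam. Of 12 fitted, 8 were higher in hypothalamus, 5 past the test, and 1 was lower past it (median 0.23). The lower one, named after its value was seen, was Cdh5, which encodes VE-cadherin, the adhesion molecule of endothelial contacts (-0.54, limma adjusted p = 0.015). Marveld3, above background on no prefrontal array, was at least 2.65-fold higher in hypothalamus. Jam3 rose by 0.84 log2 units and the claudin gene Cldn3 by 0.81, genes that other brain cells and epithelia also express. Clotting and haemostasis genes likewise differed from Vwf, with 5 of 10 called higher and 2 lower (median 0.39). The tissue factor gene F3 rose by 0.62, and the thrombomodulin gene Thbd fell by 1.12. Adamts13, which cleaves von Willebrand factor, was above background on the 3 prefrontal arrays and on none of the other 6, and was at least 2.50-fold lower in hypothalamus. Of the 10 clotting genes, 3 were above background in 1 of these 2 regions only, and 2 of those were called. The Slco family beyond the 2 transporters had 1 of 5 called higher (Slco3a1, 0.64) and 1 lower (Slco2b1, -0.30), and the Ly6 family 2 of 8 higher (Ly6h, 1.19, and Cd59a, 1.67) and 2 lower (Ly6e, -0.68, and Lynx1, -0.91).

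Around the receptors, ligands and partners split. Of 9 fitted VEGF and angiopoietin genes, 2 were called lower in hypothalamus, the lymphatic growth factor gene Vegfc (-1.12) and Ptprb, the phosphatase that opposes Tek (-0.92), and 2 higher, the placental growth factor gene Pgf (1.38) and the Tek agonist Angpt1. Angpt1 was above background on 2 hypothalamic and 0 prefrontal arrays and was at least 1.90-fold higher in hypothalamus. Of 7 fitted genes of arterial endothelium, 5 were called lower (median -0.91), among them the Notch target Hey1 (-1.02), the ephrin gene Efnb2 (-0.91) and the chemokine gene Cxcl12 (-0.73), and 1, the connexin gene Gja5, was called higher (0.46, above background on 2 of 3 arrays in each of the 2 regions, named after its value was seen). Venous genes had 2 of 6 called higher (Nr2f2, the venous fate regulator, 2.62, and Vcam1, 0.41) and 2 lower (Ackr1, -0.58, and Il1r1, -0.30). Which cells of the whole tissue carried the arterial and venous differences was not tested. Of 8 genes of fenestrated and peripheral endothelium, 2 were called higher, Esm1 (at least 6.81-fold) and Cd36 (at least 2.96-fold), neither above background on any prefrontal array, and 1 lower (Lyve1, -1.42, above background on 1 of 3 hypothalamic arrays). Plvap, the diaphragm protein of fenestrae, was at 0.30 with an adjusted p of 0.23 (limma).

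Wnt and Norrin signalling genes had 4 of 16 called lower and 2 higher (median -0.22), the lower count near the 21.3% over all genes, with Tnfrsf19, a Wnt target, at -1.80, the ligand Wnt7b at -0.78, the coactivator Adgra2 at -0.52 and Lef1, a nuclear effector, at -0.51. The higher ones, Wnt7a (0.51) and Tspan12 (0.29), were named after their values were seen. Genes of Notch, BMP, apelin and sphingosine signalling had 4 of 12 called lower and 2 higher (median -0.20), with the apelin gene Apln at -0.75, the tip cell ligand Dll4 at -0.53, the TGF-beta coreceptor Eng at -0.52 and the receptor Notch1 at 0.32. Endothelial transcription factors had 1 of 11 called lower (Klf4, -0.63, which responds to blood flow) and 0 higher (median -0.25). Endothelial activation genes had 2 of 7 called higher and 2 lower (Ackr1 and Il1r1), with a median of 0.36.

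In amygdala against prefrontal cortex, where 10.2% of all genes were called lower and 12.1% higher, 5 of 27 pan-endothelial genes were called lower and 2 higher (median -0.14). Of 21 barrier transporters, 2 were called lower, near the share over all genes, and 1 higher (median -0.22). Cd34 was again lower (-2.44), as were Cav2 (-0.63) and Slc39a10 (-0.77), and Sparc (1.53) and Slc7a3 (1.29) were higher. Against hypothalamus, 13.5% of all genes were called higher in amygdala and 15.9% lower. Of 27 pan-endothelial genes, 4 were called higher in amygdala than in hypothalamus and 4 lower (median 0.13). Of 21 barrier transporters, 5 were called higher and 3 lower (median 0.041). The 3 lower ones were Slc7a3 (-0.86), Mfsd2a (-0.65) and Slc2a1 (-0.46). Of 7 arterial genes there, 6 were higher in amygdala, 4 past the test, and 1 was lower without passing it (median 0.56). Efnb2 was at 1.15, the endothelin gene Edn1 at 0.84 and Gja5 at 0.57. The Tek antagonist Angpt2 was 0.87 higher in amygdala than in hypothalamus (limma adjusted p = 0.016) and 0.68 higher than in prefrontal cortex (adjusted p = 0.048).

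The diets were compared over the 3 regions in the same limma fit. None of the 10 endothelial genes passed the test in any diet comparison. Of 12619 genes, 0 were called for CR against AD (0%), with 2086 at an unadjusted p under 0.05, 2 for RFR against AD (0.0158%) and 2 between CR and RFR (0.0158%), so the test called almost nothing here and the 10 genes do not stand apart in that. Because the same 4 mice gave all 3 regions of a diet, the diet p-values are smaller than they should be, and they measure the spread between these arrays alone. Among the 10, 0, 0 and 1 had an unadjusted p under 0.05 in the 3 comparisons, beside 16.5%, 6.16% and 14.8% of all genes.

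For CR against AD, 7 genes were higher and 3 lower (median 0.14, beside -0.040 over all genes). Their differences ran from -0.13 ± 0.14 (Esam) to 0.45 ± 0.26 (Pecam1), with adjusted p of 0.31 to 0.91, and the AD and CR arrays overlapped for all 10, beside 2.56% of all genes higher and 5.45% lower under CR without overlap. RFR against AD gave 4 higher and 6 lower (median -0.068, beside -0.030), from -0.27 ± 0.16 (Cldn5) to 0.12 ± 0.16 (Tek); the arrays overlapped for all 10, beside 1.68% of all genes higher and 2.57% lower without overlap. CR against RFR gave 9 higher and 1 lower (median 0.23, beside -0.010), with Flt1 at -0.11 ± 0.11. Kdr showed the widest gap, 0.49 ± 0.12 log2 units higher under CR than under RFR (1.40-fold, 95% interval 0.21 to 0.78), higher in 3 of 3 regions, with an unadjusted p of 0.0048 and a limma adjusted p of 0.18. The CR and RFR arrays did not overlap for Kdr and Pecam1, 2 of the 10 genes, beside 3.64% of all genes that were higher and 5.27% that were lower under CR without overlap. These comparisons share arrays with each other.

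Leaving out the hypothalamus turned Cldn5 and Ly6c1 below 0 for CR against AD (-0.10 for both). With slide as a fixed term, Pecam1 turned from 0.45 to -0.43 for CR against AD and from 0.44 to -0.071 for CR against RFR, without passing the test.

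Other cell markers moved between diets too, and their part was not tested. Of 6 blood genes, 6 were higher under CR than RFR (median 1.15), and their sums were lowest on the RFR array in each region, at 2.78, 5.35 and 15.9. Oligodendrocyte genes were higher under CR than RFR in 9 of 9 (median 0.43), mural cell genes in 10 of 15 (median 0.16) and meningeal fibroblast genes in 10 of 14 (median 0.12). Neuron genes were higher under CR than RFR in 10 of 12 (median 0.14) and astrocyte genes in 7 of 8 (median 0.13), while choroid plexus genes were lower in 7 of 9 (median -0.29). None of these passed the test. Of 6 pituitary genes, 5 were lower under CR than RFR and 2 passed (limma adjusted p = 0.0013 for Prl and 0.014 for Gh), both hormone genes above background on the 3 RFR arrays alone. Of the 14 vessel lists, pan-endothelial genes were higher under CR than RFR in 18 of 27 (median 0.069) and barrier transporters in 12 of 21 (median 0.014), with 0 called in either.

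Within a region each diet has 1 array, so differences there have no replicate check, and they are set beside the error that Agilent's software gives for a spot, which for a difference was 0.20 to 0.30 log2 units. In the amygdala, Pecam1 was 1.26 log2 units higher under CR than AD, and 2.23% of the 12246 genes compared there were higher by 1 log2 unit or more. It was the only one of the 10 genes that reached 1 log2 unit in any of the 9 comparisons within a region, where 7.91% of all genes did so in at least 1. Vwf was 0.88 higher and Tek 0.58 higher, while Cldn5 differed by -0.38 and Ly6c1 by -0.39, and the 10 genes had a median of 0.15, beside -0.11 over all genes. The CR array lay on a slide of its own. It was above AD for 6 of 10 genes, beside 38.2% of all genes, and above RFR for 9 of 10 (median 0.16, beside -0.056), beside 43.6%. RFR against AD gave 4 higher, beside 45.8% of all genes, and 6 lower (median -0.13, beside -0.033), with Ly6c1 at -0.51 and Cldn5 at -0.45. Mural cell genes were above AD in 7 of 15 on the CR array (median -0.022), and fibroblast genes in 4 of 13 (median -0.19).

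In the hypothalamus the CR array, on another slide than the AD array, stood above both others. It was higher than AD for 8 of 10 genes, beside 46.2% of all genes (median 0.31, beside -0.032), led by Slco1a4 (0.60), Vwf (0.57), Kdr (0.50) and Cldn5 (0.42), with Esam (-0.19) and Slco1c1 (-0.027) below 0. It was also higher than RFR for 8 of 10, beside 56.1% of all genes (median 0.31, beside 0.035), led by Cldn5 (0.68), Vwf (0.64) and Kdr (0.58), and these 2 arrays shared a slide. RFR and AD differed by a median of -0.00039, with 5 of the 10 genes higher under RFR, beside 39% of all genes. On the same CR array, meningeal and perivascular fibroblast genes were above AD in 13 of 13 (median 0.70) and above RFR in 13 of 13 (median 0.78), and mural cell genes in 10 of 14 (median 0.24) and 13 of 14 (median 0.24), and their part in the endothelial values was not tested.

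In the prefrontal cortex the order was another: CR was above AD for 3 of 10 genes, beside 46.4% of all genes (median -0.10, beside -0.026). RFR was above AD for 3 of 10, beside 52% (median -0.18, beside 0.011), and these arrays shared a slide. On the same arrays, meningeal and perivascular fibroblast genes were below AD in 13 of 14 under CR (median -0.61) and in 9 of 13 under RFR (median -0.28), and mural cell genes in 10 of 15 under either diet (medians -0.22 and -0.17), and their part in the endothelial values was not tested. Pecam1 (-0.53), Kdr (-0.40) and Vwf (-0.40) were lowest under RFR relative to AD, and Flt1 (0.19) highest. CR against RFR gave 6 higher, beside 46.5% of all genes, and 4 lower (median 0.21, beside -0.021), with Kdr at 0.38 and Flt1 at -0.32. Kdr, Vwf, Ly6c1, Slco1a4, Cldn5 and Pecam1 were higher under CR than RFR in all 3 regions, Slco1a4 in the amygdala by 0.0040 only.

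**Figure D4:**
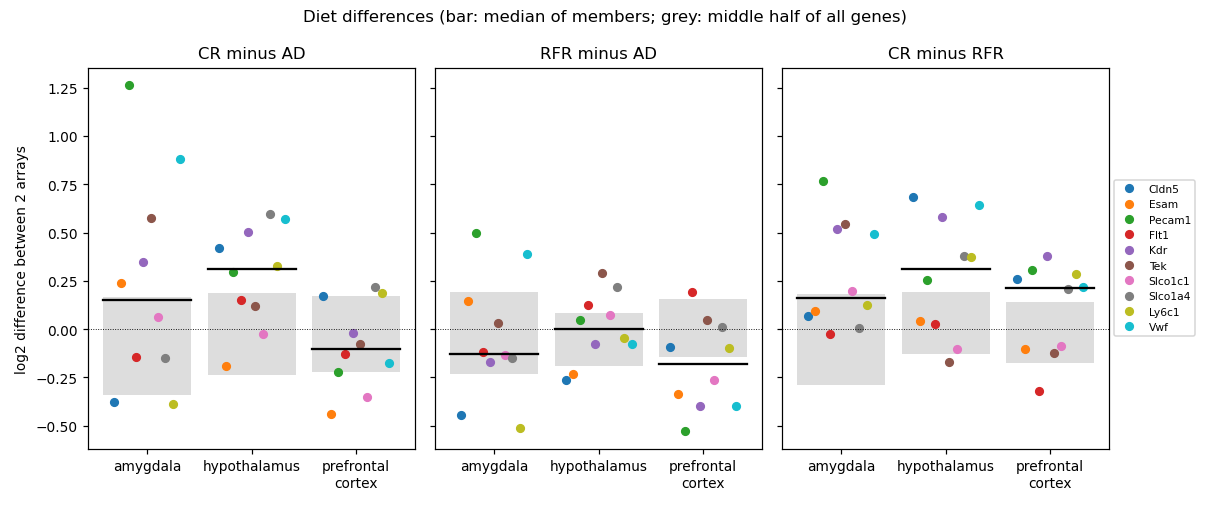
Log2 difference between 2 arrays of the same region (y axis) for each endothelial gene (coloured points), by region (x axis) and diet comparison (panels), with a black bar at the median of the 10 genes and a grey box over the range between the quartiles of all genes compared. Pecam1 in amygdala under CR against AD is the single point above 1, at 1.26. The box shows the spread of single genes, not that of a median of 10. The median bar is at 0.31 for hypothalamus CR against AD and against RFR, and at -0.18 for prefrontal cortex RFR against AD.

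The 10 genes rose and fell together only in part. Over the 9 arrays, 43 of the 45 pairs had a Pearson correlation above 0, from -0.051 to 0.92 with a median of 0.55, and 12 were above 0.7. The arrays share pools, slides and regions, so these values are descriptions over 9 points. With each region's mean taken out, 30 of 45 stayed above 0, from -0.56 to 0.94 with a median of 0.19. The pairs Kdr and Vwf (0.92, and 0.84 without the region means), Pecam1 and Vwf (0.82 and 0.92), Cldn5 and Ly6c1 (0.88 and 0.94) and Cldn5 and Slco1a4 (0.88 and 0.75) stayed high, while Flt1 and Slco1c1 went from 0.86 to 0.10. Cldn5, Ly6c1, Slco1a4 and Flt1 were each below their amygdala AD level on the amygdala CR array. Pecam1, Vwf, Tek and Kdr each had their highest value of all 9 arrays there.

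**Figure D5:**
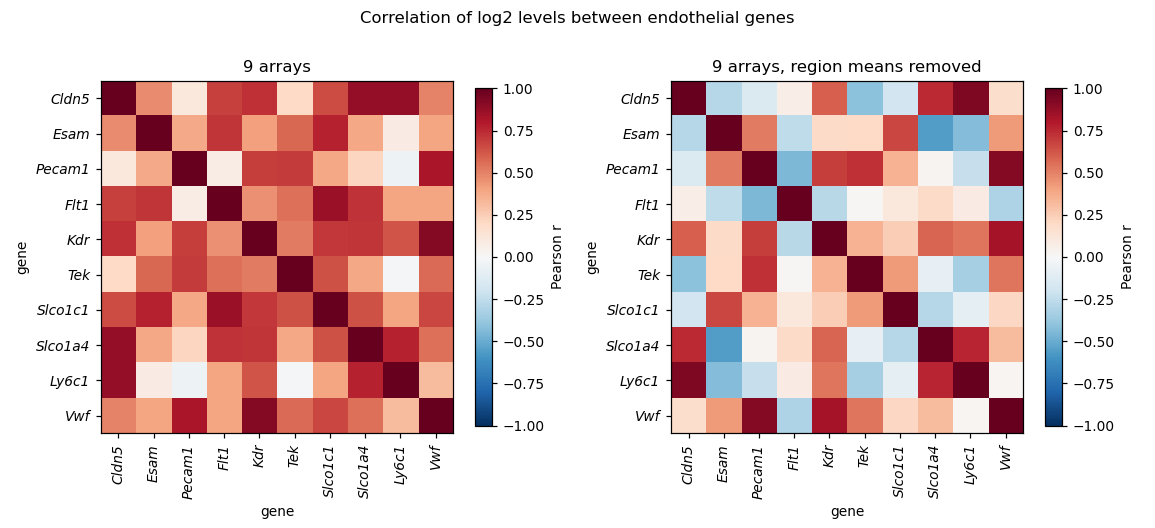
Pearson correlation (colour, from -1 in blue to 1 in red) between the log2 levels of each pair of endothelial genes over the 9 arrays (left) and over the 9 arrays after each region's mean was removed (right). On the left 43 of 45 pairs are above 0 and on the right 30 of 45, and Cldn5 with Ly6c1 (0.94) and Pecam1 with Vwf (0.92) are the highest on the right.

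The mean of the 10 genes, each centred on its own mean, was 0.34, 0.25 and 0.15 in prefrontal cortex under AD, CR and RFR, -0.07, 0.16 and -0.12 in amygdala, and -0.33, -0.06 and -0.33 in hypothalamus. The 10 genes most like this profile, by Pearson correlation over the 9 arrays among 11221 genes well above background on all of them, were Prom1 (0.976), Myo18a (0.966), Tarsl2 (0.961), Brf2 (0.958), Tmod1 (0.955), Ext1 (0.955), Megf9 (0.954), Lmcd1 (0.953), Syp (0.948) and Vps33a (0.945). None of them is on a vessel or cell type list, and Syp is a gene of synaptic vesicles. The first listed vessel genes in that order were Tfrc at rank 11 (0.944), Rgs5 at rank 22 (0.932) and the efflux pump gene Abcb1a at rank 125 (0.899). A correlation over 9 arrays in 3 regions mostly ranks genes by their region order.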

How the data were processed

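RNA of 3 brain regions and 3 diets was hybridised to 9 single-colour Agilent whole mouse genome arrays. Per the file headers, Agilent Feature Extraction 9.5.1.1 made the deposited scanner output, whose processed signal is an intensity with background subtracted on each array separately and no scaling between arrays. The deposited quality columns hold other values, namely flags of 0 or 1 (signal clearly over background, saturation, outlier). A table the authors deposited holds a ratio of each array to the AD array of its region: its AD columns are 1 throughout, its other columns have medians of 1.01 to 1.07, and over 99% of its values matched the processed-signal ratio to 0.01 on the log2 scale once 1 constant per array was allowed. How that constant was set is not given in the sources used here, and the table served as an alternative for diets alone.

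Values were log2 processed signal minus the array's 75th percentile, without outlier spots, averaged over the spots of a probe. Names came from RefSeq accessions (22951 of 41174 probes matched the GRCm38.p6 gene table, used for names), and each gene was read from its brightest probe by mean level. limma 3.58.1 in R 4.3.3 fitted region plus diet, with 4 residual degrees of freedom, to genes that passed the background flag on 3 or more arrays and had 6 or more values; Benjamini-Hochberg adjustment ran over all 12619 genes, and the threshold was 0.05. The labels give no replicates: the 3 diets act as the samples of a region, and p-values measure the spread between these arrays. Differences within a region were counted from 1 log2 unit and not tested. The fit was tested on simulated data. Beside the 10 genes, the text names up to 4 genes of a list with the largest moderated t, every called one where 5 or fewer were called, and the 10 genes with the most similar profile. Other settings tried concerned the background (normexp, offset 50, run on median in place of mean spot signals), scaling, the filter, probes, variances, slides and single arrays. Textbook genes for the regions, the other Flt1 probe and differences within a slide were added after the data were seen. The 10 genes and all lists were chosen with earlier results of these data known. Some genes that this rule names are not reported here. Python 3.11.15 did the rest.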

Additional observations from a re-analysis of the deposited data

How the results depend on the processing

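The 6 calls of hypothalamus against prefrontal cortex numbered 4 to 7 over the settings that kept all arrays and 1 to 8 when a diet, or the amygdala CR array, was left out. The 3 calls of amygdala against hypothalamus became 0 with no filter on dim genes and 0 with slide as a fixed term, and ranged from 0 to 1 with arrays left out. The 3 of amygdala against prefrontal cortex became 0 in both of those settings and ranged from 0 to 3. Over all genes, calls higher in amygdala than in hypothalamus were 1709, with 1431 under no filter and 1388 under the slide term. Calls lower in amygdala than in prefrontal cortex were 1284, 1004 and 566 in the same order. No diet comparison called any of the 10 genes in limma under these settings or with a region or the amygdala CR array left out (0 to 0 calls). Without the amygdala arrays, 657 of all 12619 genes were called higher and 579 lower for CR against AD. Of the differences of the 10 genes under all alternatives, 756 kept direction and side of the threshold, 47 lost the call, 8 gained one and 56 changed sign. Scaling on the median moved the median of all genes from 0.056 to -0.078 for hypothalamus minus prefrontal cortex and from 0.0035 to -0.13 for amygdala minus prefrontal cortex. Over all genes, CR against RFR had 2 calls, 41 under normexp and 20 in the authors' table. RFR against AD had 2, against 1 and 5, and CR against AD 0, against 3 in the authors' table. CR against RFR had 3 higher and 38 lower calls with trended and robust variances. It had 2 higher and 22 lower among the 11231 genes above background on all 9 arrays. With slide as a fixed term, CR against AD had 0 higher and 5 lower calls, and RFR against AD 1 and 12. The authors' table gave no region comparison. Diet, and with it the pool of mice, was a term in the region comparisons, so regions of 1 pool were set against each other; the labels carry no replicate numbers for a further block. The cause of these changes was not tested.

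No member changed sign in hypothalamus minus prefrontal cortex under any of the alternatives. Log2 differences that did so elsewhere, with all arrays kept, follow. With slide as a fixed term they were, in amygdala minus hypothalamus, Pecam1 (-0.080) and Tek (-0.16); in amygdala minus prefrontal cortex, Ly6c1 (0.13); in CR minus AD, Pecam1 (-0.43), Flt1 (0.27) and Tek (-0.070); and in RFR minus AD, Pecam1 (-0.36). That setting also turned Pecam1 (-0.071), Flt1 (0.017), Tek (-0.15), Esam (-0.17) and Slco1c1 (-0.14) in CR minus RFR. Under normexp they were Ly6c1 (0.044) in amygdala minus prefrontal cortex, Pecam1 (-0.13) in RFR minus AD, and Tek (-0.040) and Esam (-0.044) in CR minus RFR. Flt1 turned in CR minus AD under quantile scaling (0.020), in the authors' table (0.074), with the mean of its probes (0.055) and with its other probe (0.15), which also turned CR minus RFR (0.081). Pecam1 turned in RFR minus AD under quantile (-0.063) and median scaling (-0.054), as did Slco1a4 (-0.034) under the latter. The authors' table turned Slco1c1 in CR minus AD (0.0073) and Vwf in RFR minus AD (0.025).

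With arrays left out, the log2 difference of amygdala minus hypothalamus ran from -0.19 to 0.059 for Esam, -0.080 to 0.28 for Ly6c1, -0.066 to 0.31 for Slco1a4, -0.16 to 0.21 for Tek and -0.035 to 0.49 for Pecam1. That of amygdala minus prefrontal cortex ran from -0.35 to 0.39 for Pecam1, -0.23 to 0.30 for Vwf and -0.25 to 0.055 for Ly6c1. CR minus AD ran from -0.14 to 0.013 for Flt1, -0.10 to 0.29 for Cldn5, -0.10 to 0.26 for Ly6c1, -0.31 to 0.024 for Esam, -0.20 to 0.017 for Slco1c1 and -0.00022 to 0.35 for Tek. RFR minus AD ran from -0.24 to 0.27 for Pecam1, -0.071 to 0.11 for Slco1a4 and -0.24 to 0.16 for Vwf, and CR minus RFR from -0.15 to 0.21 for Tek, -0.10 to 0.067 for Esam, -0.095 to 0.055 for Slco1c1 and -0.17 to 0.0020 for Flt1.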

Other observations

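Among listed vessel genes, Cd300lg, a gene of capillary endothelium, was singled out after its values were seen. Its log2 levels under AD, CR and RFR were -5.28, -5.00 and -4.85 in amygdala, -5.01, -2.26 and -5.51 in hypothalamus, and -4.61, -5.09 and -2.69 in prefrontal cortex, and it was well above background on 8 arrays. The hypothalamus CR and prefrontal RFR arrays stood above the 7 others. The barrier efflux pump gene Abcb1a was 0.66 log2 units higher under CR than AD (limma adjusted p = 0.21) and 0.74 higher under CR than RFR (adjusted p = 0.18), and passed the test in neither.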
